A study of Mus musculus with 8 samples.

Results

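The genes described here are 49 mouse genes of DNA replication and S phase, chosen by name from their textbook roles: origin licensing, the replicative helicase and its activation, the sliding clamp and its loaders, the polymerases, nucleotide supply, S phase entry and the replication checkpoint. They were chosen with earlier results of these data known, so their counts beside all genes are descriptions. Of the 18193 genes on the array that could be named by a single symbol, 48 were members and were covered by 108 of the 45037 probe sets tested. Chaf1a, a subunit of the complex that places histones on new DNA, had no probe set of its own and was not measured. Each gene was described by its probe set with the highest mean over all arrays, and 37 members had more than 1 probe set.

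DNA is copied once per cell cycle, in S phase. Origins are first licensed, when the origin recognition complex, Cdc6 and Cdt1 load the ring-shaped Mcm helicase, and the helicase is later activated by Cdc45 and the GINS complex so that primase and polymerases can follow it. Many genes of this machinery are switched on together by E2F transcription factors as cells enter S phase. In the mouse fetal gonad, Sertoli cells are known to keep dividing, whereas pre-granulosa cells are known to leave the cell cycle.

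The study compared supporting cells, the somatic cells that surround the germ cells, and whole gonads of both sexes at embryonic day 13. It had 4 groups with 2 Affymetrix mouse expression arrays each. Sorted XY cells that carried EGFP are called Sertoli cells and sorted XX cells that carried it pre-granulosa cells, as in the labels, with about 22000 and about 30000 cells per sample. Whole testes and whole ovaries were the other groups, with 4 pooled gonads per sample. All groups had the strain label C57BL6/J-Tg92, and the promoter that drives EGFP in this line is not given in the sources used here. About 20 ng of total RNA was amplified and about 2.5 µg of labelled cDNA was put on each array. The labels are silent on which animals each sample of a group was taken from, so the p-values measure only how far these samples lie apart, and 2 arrays per group limit the precision.

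Values are log2 signals, so a difference of 1 is a doubling. The 4 sorted-cell arrays appear to have been normalized apart from the 4 gonad arrays, since ranked values differed by at most 0.17 and 0.14 within the sets and by a median of 0.38 between them. Sorting and preparation go with the set, so these cannot be told apart from a difference between sorted cells and gonads. Dhh, a Sertoli cell hedgehog ligand, read 12.35 and 12.19 in Sertoli cells and 5.17 and 6.39 in pre-granulosa cells, and Foxl2, a granulosa cell factor, read 5.19 and 5.43 in Sertoli cells and 8.99 and 9.65 in pre-granulosa cells, as the labels say. The 4 Sertoli markers had a summed log2 level of 14.14 and 14.22 in Sertoli cells. In pre-granulosa cells that level was 9.90 and 11.11, above the 8.87 and 9.17 of ovaries. The 4 pre-granulosa markers summed to 12.41 and 13.23 in pre-granulosa cells. In Sertoli cells they summed to 8.16 and 7.65, against 8.35 and 8.65 in testes. Germ cell markers (7 of 8 measured) had a summed log2 level of 7.03 and 7.39 in Sertoli cells and 7.14 and 6.86 in pre-granulosa cells, against 12.62 to 12.92 in the gonads. In bulk samples such as these, fewer cells of a type cannot be told apart from less RNA per cell.

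Replication genes as a whole were lower in pre-granulosa cells than in the other groups. The mean log2 level of the 48 members stood 2.32 and 2.23 above the median gene of the same array in Sertoli cells and 1.16 and 1.11 above it in pre-granulosa cells. In testes it stood 2.35 and 2.41 above the median gene, and in ovaries 2.41 and 2.35. Both pre-granulosa arrays thus lay apart from the other 6, which differed among themselves by less than 0.2.

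**Figure D1:**
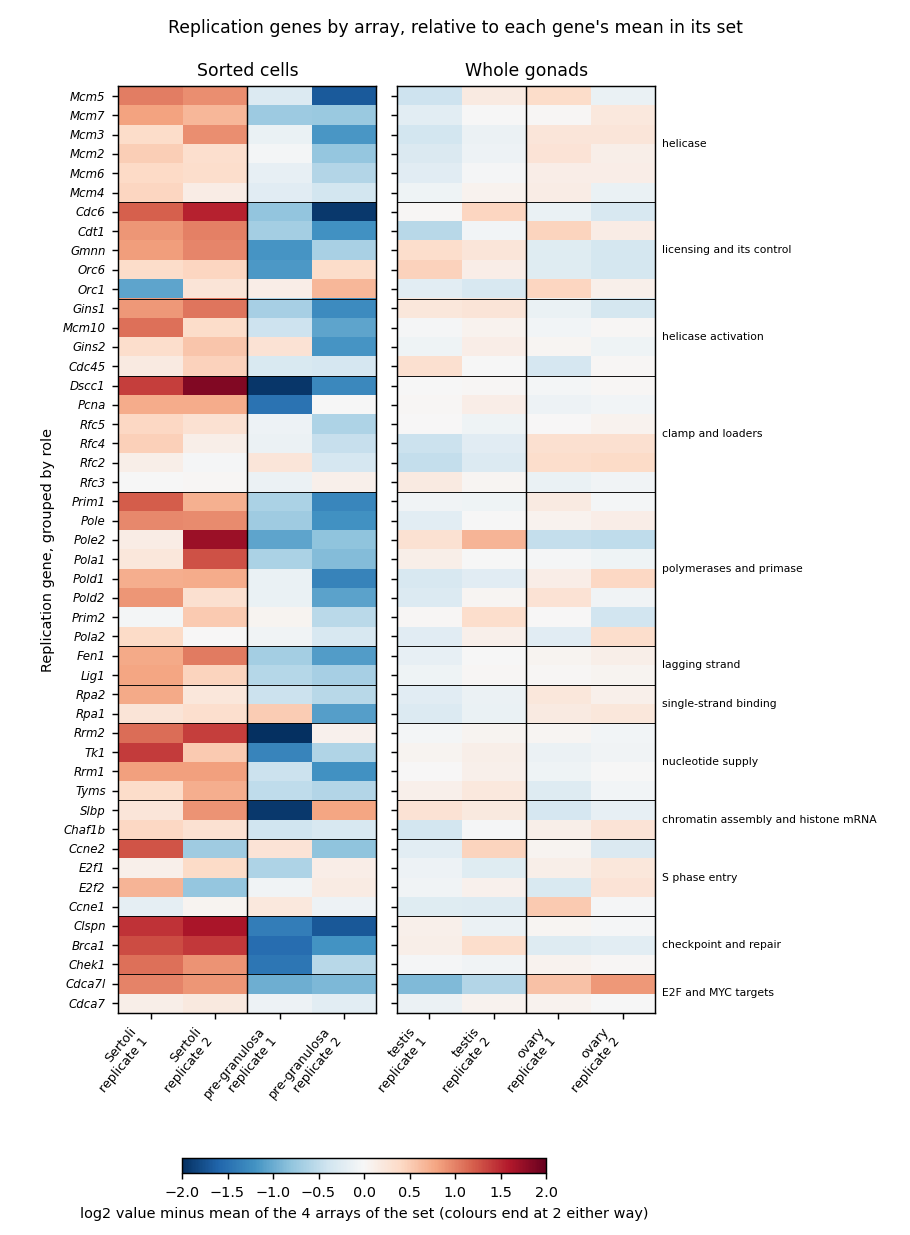
Log2 value of each of the 48 measured replication genes (rows, by role) on each array (columns), as the difference from the gene's own mean over the 4 arrays of its set. Red is above and blue below that mean, and colours end at 2 log2 units. In the sorted cells the Sertoli columns are mostly red and the pre-granulosa columns mostly blue, whereas in the whole gonads the colours are pale apart from genes such as Cdca7l, Pole2 and Rfc2.

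The first comparison asked how the supporting cells of the 2 sexes differ (Sertoli minus pre-granulosa). Of the 48 members, 45 had a higher mean in Sertoli cells, while 55.0% of all genes did. The median member difference was 1.21 log2 units, or 2.32-fold, against 0.04 over all genes. Both Sertoli arrays lay above both pre-granulosa arrays for 37 members, where 24.2% of all genes did so, and for 0 members was the reverse true, where the background was 19.1%. For 26 of the 37 the difference was also over 1 log2 unit, which held for 7.56% of all genes, and 0 members were lower by as much, where 5.91% of all genes were.

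By the limma test, 9 members were called higher in Sertoli cells and 0 lower, at an adjusted p of 0.01 or less (Benjamini-Hochberg over all probe sets). Among all genes 1.62% were called higher and 1.05% lower. At an unadjusted p under 0.05, 34 members were higher and 0 lower, beside 12.6% and 9.80% of all genes. The 9 genes were Dscc1, Clspn, Brca1, Gins1, Pole, Cdca7l, Gmnn, Fen1 and Mcm7, and they came from 8 of the 12 roles into which the members were sorted. The call uses the spread pooled over all 8 arrays: with the 4 sorted-cell arrays alone, 0 members and 0 of all genes were called, and 29 members had an unadjusted p under 0.05. Without Sertoli replicate 2, 0 were called (33 at an unadjusted p under 0.05), without Sertoli replicate 1 there were 3, without any one gonad array 2 (Clspn and Brca1), and without pre-granulosa replicate 2 there were 14.

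The 3' minus 5' probe signal, a measure of RNA quality, was greatest in pre-granulosa replicate 1 among all 8 arrays, with 3.08 for actin and 3.68 for Gapdh on the log2 scale, and replicate 2 had the smallest among the sorted cells, at 1.70 and 1.24. The Sertoli arrays lay between them, at 2.17 and 2.51 for actin and 1.94 and 2.69 for Gapdh. Of the members, 32 read higher and 16 lower in pre-granulosa replicate 1 than in replicate 2, and those with the widest gaps, Slbp and Rrm2, read lower in replicate 1. The part of RNA quality in the member differences was not tested. Without pre-granulosa replicate 1 the median member difference was 1.34, against 0.08 over all genes. Macrophage markers (6 of 6 measured) summed to 9.66 and 11.70 in Sertoli cells and 7.44 and 7.31 in pre-granulosa cells, and fetal Leydig markers (4 of 5) to 10.83 and 11.61 in Sertoli cells and 9.81 and 9.31 in pre-granulosa cells. Interstitial markers (4 of 5) summed to 9.97 and 10.22 in Sertoli cells and 8.29 and 10.31 in pre-granulosa cells. Endothelial markers (6 of 6) summed to 8.72 and 9.01 in Sertoli cells and 7.81 and 8.89 in pre-granulosa cells, and erythroid markers (4 of 5) to 10.48 and 10.29 in Sertoli cells and 11.58 and 10.44 in pre-granulosa cells. The part of such cells in the member differences was not tested.

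**Figure D2:**
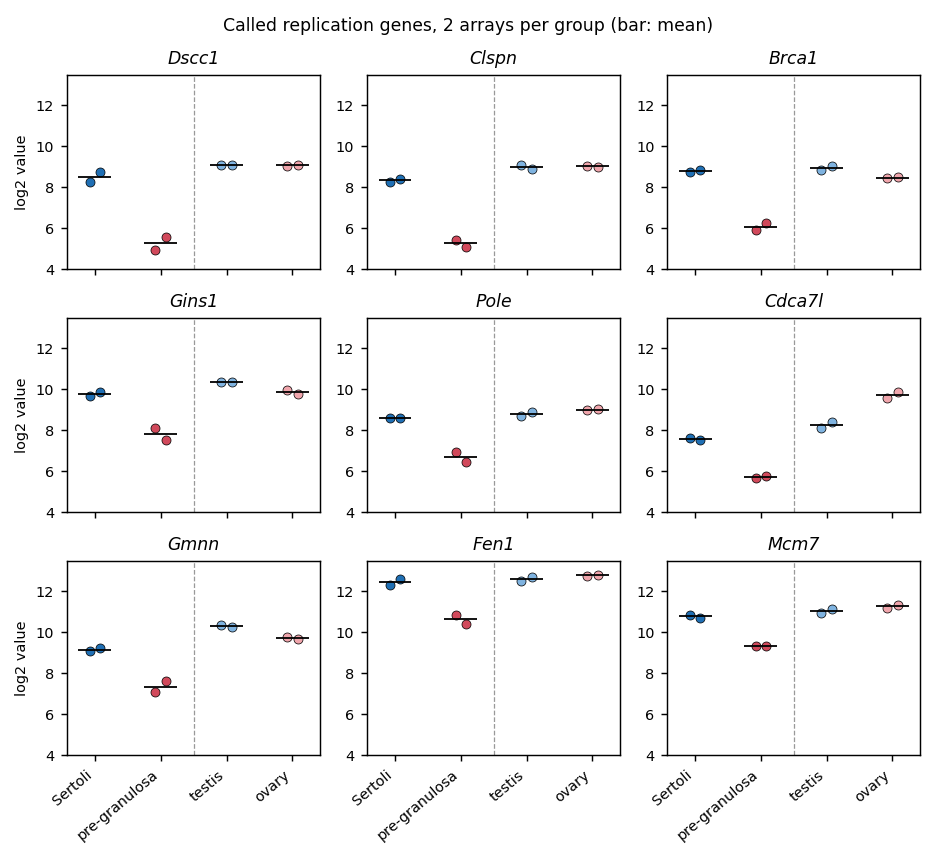
Log2 values of the 9 members called in Sertoli minus pre-granulosa, 1 panel per gene, with 1 point per array and a bar at the mean of the 2 arrays. The dashed line parts the sorted cells from the whole gonads, whose levels were normalized apart. In every panel the pre-granulosa points are the lowest, and testis and ovary part most for Cdca7l, with the ovary higher.

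Promoter letters were read next. The names were chosen without reading these letters, but the list holds known E2F targets such as Cdca7. The share of members with an E2F motif is therefore not independent of the choice of names. RefSeq promoters of mouse assembly GRCm38.p6, from 250 bases before to 50 after the transcription start, were found for 40 of the 49 listed members. The E2F motif was searched on both strands as TTTCCCGC, TTTCGCGC, TTTGCCGC and TTTGGCGC, whose matches may overlap. It occurred in 15 of the 40 (37.5%), against 3.81% of the 14453 array genes with a promoter and 2.6% of all 27025 genes. The CCAAT box, bound by the factor NF-Y in many cell cycle genes, occurred in 24 (60.0%), against 42.0% of array genes. The CHR element of late cell cycle genes, TTTGAA or TTCGAA on either strand, occurred in 7 (17.5%), the same share as in array genes. For Mcm6, which had 3 matches before the start, the stretch shown ends 20 bases after the first, so the last match is left out. In 8 members an E2F match lay wholly before the start, and these are shown with 20 bases on either side, fewer where the window ended, to let the matches be compared (capitals mark the matches, 5' to 3' on the gene's strand):
Mcm5 (chr8:75109336-75109387, plus strand): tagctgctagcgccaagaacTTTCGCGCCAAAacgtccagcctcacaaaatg
Mcm6 (chr1:128359788-128359835, minus strand): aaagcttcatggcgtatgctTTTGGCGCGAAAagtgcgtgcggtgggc
Mcm7 (chr5:138172021-138172068, minus strand): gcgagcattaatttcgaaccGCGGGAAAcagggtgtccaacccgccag
Cdc6 (chr11:98907993-98908040, plus strand): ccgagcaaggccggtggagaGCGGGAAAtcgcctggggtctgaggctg
Orc1 (chr4:108579407-108579453, plus strand): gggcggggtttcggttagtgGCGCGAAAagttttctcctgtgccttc
Rfc3 (chr5:151651209-151651238, minus strand): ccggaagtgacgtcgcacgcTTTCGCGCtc
Pola1 (chrX:93632266-93632313, minus strand): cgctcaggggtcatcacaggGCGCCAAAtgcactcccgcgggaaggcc
Cdca7 (chr2:72476128-72476175, plus strand): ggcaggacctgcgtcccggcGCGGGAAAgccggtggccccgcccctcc

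In Mcm5 and Mcm6, subunits of one helicase, the printed matches on the 2 strands ran into each other, with their first letters at -153 and -110 from the start. The other first letters ranged from -165 in Mcm7 to -10 in Rfc3. Of the 9 called members 5 had a promoter entry, with an E2F match in 2 of them (Clspn and Mcm7) and a CCAAT box in 4 (Clspn, Brca1, Cdca7l and Mcm7). The 100 bases before the start of Clspn and Brca1, the called members with the lowest adjusted p, are shown with the CCAAT box of either strand in capitals:
Clspn (chr4:126556880-126556979, plus strand): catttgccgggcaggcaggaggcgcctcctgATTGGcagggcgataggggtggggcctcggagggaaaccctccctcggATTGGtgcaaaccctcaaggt
Brca1 (chr11:101551956-101552055, minus strand): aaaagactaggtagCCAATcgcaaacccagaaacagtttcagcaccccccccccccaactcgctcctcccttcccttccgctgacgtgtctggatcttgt

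The 15 members with an E2F match had a median Sertoli minus pre-granulosa difference of 1.46, and the 24 measured members with a promoter but no match had one of 1.11. A match is a run of letters and not a measured binding site. Orc1, Cdca7, Rfc3 and E2f2 held a match and were among the members with the smallest differences, as given below.

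The Mcm2-7 genes encode the 6 subunits of the helicase that unwinds DNA at the fork, and the Sertoli arrays were above the pre-granulosa arrays for all 6, with a median difference of 1.05. Mcm7 (probe set 1438320_s_at, chromosome 5) read 10.86 and 10.71 in Sertoli cells and 9.33 and 9.32 in pre-granulosa cells, and it rose by 1.47 ± 0.15 log2 units (SE of the model, n = 2 each, adjusted p = 0.00580), 2.76-fold. Its replicates were nearly equal within each group, and its 3 other probe sets differed by 1.50, 1.22 and 1.16. Mcm5 had the largest difference of the 6 at 1.96 ± 0.48, with 10.17 and 10.07 in Sertoli cells and 8.87 and 7.46 in pre-granulosa cells, but its pre-granulosa replicates were over 1 apart and it was not called (adjusted p = 0.0771).

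Mcm3 read 10.44 and 11.00 in Sertoli cells and 9.94 and 8.92 in pre-granulosa cells (difference 1.29 ± 0.36, adjusted p = 0.113). Mcm2 read 8.98 and 8.82 in Sertoli cells against 8.45 and 7.72 in pre-granulosa cells, and Mcm6 read 10.29 and 10.25 in Sertoli cells against 9.74 and 9.32 in pre-granulosa cells. Mcm4 read 12.86 and 12.58 in Sertoli cells against 12.20 and 12.06 in pre-granulosa cells. Mcm2, Mcm6 and Mcm4 differed by 0.82, 0.74 and 0.59, the smaller end of the helicase range, and were not called. A second probe set of Mcm4 gave 1.44, larger than the chosen one.

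Licensing genes had the widest spread of any role. Gmnn encodes geminin, the protein that holds Cdt1 back so that origins fire once per cycle. Gmnn (chromosome 13, 1 probe set, 1417506_at) read 9.09 and 9.23 in Sertoli cells and 7.08 and 7.61 in pre-granulosa cells, and rose by 1.82 ± 0.21 (adjusted p = 0.00720), 3.53-fold. Cdc6, which helps to load the helicase and is lost when cells leave the cycle, read 6.96 and 7.30 in Sertoli cells and 4.97 and 3.84 in pre-granulosa cells. Its difference of 2.72 ± 0.38 was larger than that of Gmnn, but the pre-granulosa arrays were over 1 apart, replicate 2 being under the background level of 4.78, and it missed the threshold (adjusted p = 0.0141). That level is the highest reading in XX arrays of Kdm5d, Uty and Eif2s3y, which lie on the Y chromosome. Cdt1, the other loader, read 10.20 and 10.32 in Sertoli cells and 8.62 and 8.10 in pre-granulosa cells, a difference of 1.90 ± 0.26 (adjusted p = 0.0132).

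Orc6 and Orc1, subunits of the origin recognition complex, did not part the groups by their chosen probe sets. Orc6 read 8.19 and 8.25 in Sertoli cells and 6.67 and 8.19 in pre-granulosa cells, so that its pre-granulosa replicate 2 was level with the lower Sertoli array. Orc1 read 7.22 and 8.53 in Sertoli cells and 8.42 and 8.94 in pre-granulosa cells, the lowest member difference at -0.81 ± 0.43 (adjusted p = 0.399). Its second probe set, 5.58 and 6.39 in Sertoli cells against 6.79 and 7.17 in pre-granulosa cells, had the same sign and did part them (-0.99, adjusted p = 0.216), and Orc1 was the only member with several probe sets for which all were below 0.

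The helicase is switched on by Mcm10, Cdc45 and GINS, and all 4 measured genes of this step had both Sertoli arrays above both pre-granulosa arrays. Gins1, a GINS subunit (chromosome 2, 1452598_at), read 9.65 and 9.85 in Sertoli cells and 8.12 and 7.52 in pre-granulosa cells and rose by 1.93 ± 0.23 (adjusted p = 0.00807), 3.81-fold. Its second probe set differed by 0.93 (adjusted p = 0.402), and with the mean over both Gins1 differed by 1.43 and was not called. Mcm10 read 8.07 and 7.34 in Sertoli cells and 6.57 and 5.92 in pre-granulosa cells (1.47 ± 0.31, adjusted p = 0.0502). Gins2, another GINS subunit, nearly met in the middle, with 8.23 and 8.44 in Sertoli cells and 8.17 and 6.70 in pre-granulosa cells (0.90 ± 0.45). Cdc45 had the smallest difference of the step, 0.64 ± 0.20, with 6.33 and 6.61 in Sertoli cells against 5.85 and 5.82 in pre-granulosa cells.

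Pcna encodes the sliding clamp, the Rfc genes its main loader, and Dscc1 a subunit of an alternative loader that also serves sister chromatid cohesion. Dscc1 (chromosome 15, 1452912_at) had the largest difference of all members: it read 8.26 and 8.73 in Sertoli cells and 4.93 and 5.59 in pre-granulosa cells and rose by 3.24 ± 0.26 (adjusted p = 0.00265), 9.44-fold. The lower of its pre-granulosa readings lay near the background level, so the exact size of this difference is uncertain. The second probe set of Dscc1 read 5.16 and 4.48 in Sertoli cells and 4.03 and 4.28 in pre-granulosa cells, near the background level, and differed by 0.67. Pcna read 10.07 and 10.08 in Sertoli cells and 7.86 and 9.32 in pre-granulosa cells, and the gap between the pre-granulosa arrays went with a standard error that left its difference of 1.48 ± 0.43 uncalled (adjusted p = 0.126).

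The main loader did not share the size of the Dscc1 difference. Rfc4 read 9.95 and 9.59 in Sertoli cells and 9.35 and 9.01 in pre-granulosa cells (0.59 ± 0.20), and Rfc5 differed by 0.72. Rfc2 read 10.91 and 10.77 in Sertoli cells against 11.04 and 10.46 in pre-granulosa cells, a difference of 0.09 ± 0.22, and Rfc3 differed by 0.02, so these subunits overlapped between the groups. A second probe set of Rfc4 gave 1.59, one of Rfc2 gave 0.71, and the remaining one of Rfc2 gave -0.06.

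The 8 genes of polymerases and primase all had a positive difference, from 0.40 in Pola2 to 1.93 in Prim1, and 7 of them did not overlap. Pole, the catalytic subunit of the leading-strand polymerase epsilon (chromosome 5, 1 probe set, 1448650_a_at), read 8.61 and 8.59 in Sertoli cells and 6.94 and 6.44 in pre-granulosa cells. It rose by 1.91 ± 0.20 (adjusted p = 0.00570), 3.76-fold. Its partner subunit Pole2 read 5.93 and 7.48 in Sertoli cells against 4.72 and 4.97 in pre-granulosa cells, with Sertoli replicates over 1 apart, and its 1.86 ± 0.48 was not called (adjusted p = 0.0894).

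Prim1, the catalytic primase subunit that lays the RNA primers, read 10.70 and 10.20 in Sertoli cells and 8.86 and 8.18 in pre-granulosa cells (1.93 ± 0.28, adjusted p = 0.0155). The second probe set of Prim1 was called, at 1.39 ± 0.17 (adjusted p = 0.00851), as was a second one of Mcm7, and these were the 2 called among the 60 further probe sets of members. Pola1, the X-linked catalytic subunit of polymerase alpha, read 6.96 and 8.02 in Sertoli cells and 6.11 and 5.88 in pre-granulosa cells (1.50 ± 0.33, adjusted p = 0.0603). Pold1 and Pold2 of the lagging-strand polymerase delta differed by 1.46 and 1.20, and Prim2, the second primase subunit, by 0.48.

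Lagging-strand fragments are trimmed by Fen1 and joined by Lig1. Fen1 (chromosome 19, 1436454_x_at) read 12.30 and 12.59 in Sertoli cells and 10.85 and 10.42 in pre-granulosa cells, and rose by 1.81 ± 0.20 (adjusted p = 0.00682), 3.50-fold. Lig1 read 9.99 and 9.64 in Sertoli cells and 8.63 and 8.54 in pre-granulosa cells, and with 1.23 ± 0.17 it fell just outside the threshold (adjusted p = 0.0127). Of the genes of the single-strand binding complex, Rpa2 differed by 0.98 without overlap, and Rpa1 by 0.59 with overlap. Their second probe sets disagreed with this, at -0.66 with overlap for Rpa2 and at 1.24 without overlap for Rpa1.

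By their chosen probe sets, genes of nucleotide supply had both Sertoli arrays above both pre-granulosa arrays in 4 of 4 cases. Their median difference was 1.79, and none was called. Rrm2, the cell cycle regulated subunit of ribonucleotide reductase, read 12.59 and 12.86 in Sertoli cells and 8.90 and 11.55 in pre-granulosa cells. The difference of 2.50 ± 0.77 thus came with the second-largest model standard error of the members, after Slbp. Rrm1, the other subunit, read 9.73 and 9.72 in Sertoli cells against 8.48 and 7.69 in pre-granulosa cells (1.64 ± 0.26, adjusted p = 0.0214). Tk1, the thymidine kinase of S phase, read 8.99 and 8.11 in Sertoli cells and 6.27 and 6.98 in pre-granulosa cells (1.93 ± 0.35, adjusted p = 0.0318). Tyms, which makes thymidylate, read 6.63 and 6.99 in Sertoli cells against 5.76 and 5.68 in pre-granulosa cells (1.09 ± 0.18, adjusted p = 0.0224). All 4 had an unadjusted p under 0.05, and Rrm1, Tk1 and Tyms had an adjusted p under 0.05. Further probe sets gave smaller values: -0.24 and -0.14 for Rrm1, 0.59 and 1.00 for Rrm2, and from 0.08 to 0.48 for Tyms.

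The checkpoint and repair genes had the highest median difference of any role, 2.72. Clspn encodes claspin, which passes the signal of a stalled fork to the kinase Chek1. Clspn (chromosome 4, 1456280_at) read 8.24 and 8.42 in Sertoli cells and 5.41 and 5.09 in pre-granulosa cells and rose by 3.08 ± 0.17 (adjusted p = 0.00122), 8.45-fold, the lowest adjusted p of the members. Brca1, a repair protein that guards stalled forks (chromosome 11, 1424629_at), read 8.74 and 8.85 in Sertoli cells and 5.90 and 6.23 in pre-granulosa cells and rose by 2.72 ± 0.17 (adjusted p = 0.00143), 6.61-fold. The other probe sets of both genes read lower and barely differed, at 0.27 for Clspn and at 0.19, 0.00 and -0.04 for Brca1, and with the mean over its probe sets Brca1 differed by 0.72 and was not called. Chek1 itself read 8.87 and 8.68 in Sertoli cells and 6.33 and 7.23 in pre-granulosa cells (1.99 ± 0.29, adjusted p = 0.0160).

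The regulators of S phase entry had the lowest median difference of any role, 0.19. None of the 4 was called, and none of their chosen probe sets was free of overlap. E2f1, a transcriptional activator of replication genes, read 7.96 and 8.25 in Sertoli cells and 7.25 and 7.99 in pre-granulosa cells (0.48 ± 0.26, adjusted p = 0.409). E2f2, a related activator, read 6.0 and 4.55 in Sertoli cells and 5.26 and 5.48 in pre-granulosa cells (-0.10 ± 0.47), with Sertoli replicates over 1 apart. Cyclin E activates the kinase Cdk2 at S phase entry, and of its genes Ccne1 read 6.96 and 7.18 in Sertoli cells and 7.35 and 7.03 in pre-granulosa cells (-0.12 ± 0.23). Ccne2 read 7.08 and 5.11 in Sertoli cells against 6.10 and 5.02 in pre-granulosa cells (0.53 ± 0.68), so that the replicates of both groups were over 1 apart. Other probe sets gave larger values: 1 of E2f2 read 5.73 and 5.59 in Sertoli cells and 4.87 and 4.07 in pre-granulosa cells (1.19, without overlap), and 1 of Ccne1 differed by 0.29, also without overlap.

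Cdca7 and Cdca7l are paralogs, known as an E2F target and as a partner of MYC. Cdca7l (chromosome 12, 1 probe set, 1451306_at) read 7.64 and 7.52 in Sertoli cells and 5.67 and 5.75 in pre-granulosa cells and rose by 1.87 ± 0.18 (adjusted p = 0.00428), 3.66-fold. Cdca7 read 4.88 and 4.97 in Sertoli cells and 4.68 and 4.56 in pre-granulosa cells, at or near the background level in all 4, and it was the only member for which both pre-granulosa arrays were at or under that level. Slbp, which binds histone mRNA, read 9.92 and 10.59 in Sertoli cells and 7.76 and 10.48 in pre-granulosa cells, the widest gap between replicates of any member. Another bright probe set of Slbp went the other way, at -0.56 without overlap. It read 9.89 and 9.96 in Sertoli cells and 10.35 and 10.62 in pre-granulosa cells. Chaf1b, a histone chaperone subunit, differed by 0.72 without overlap.

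**Figure D3:**
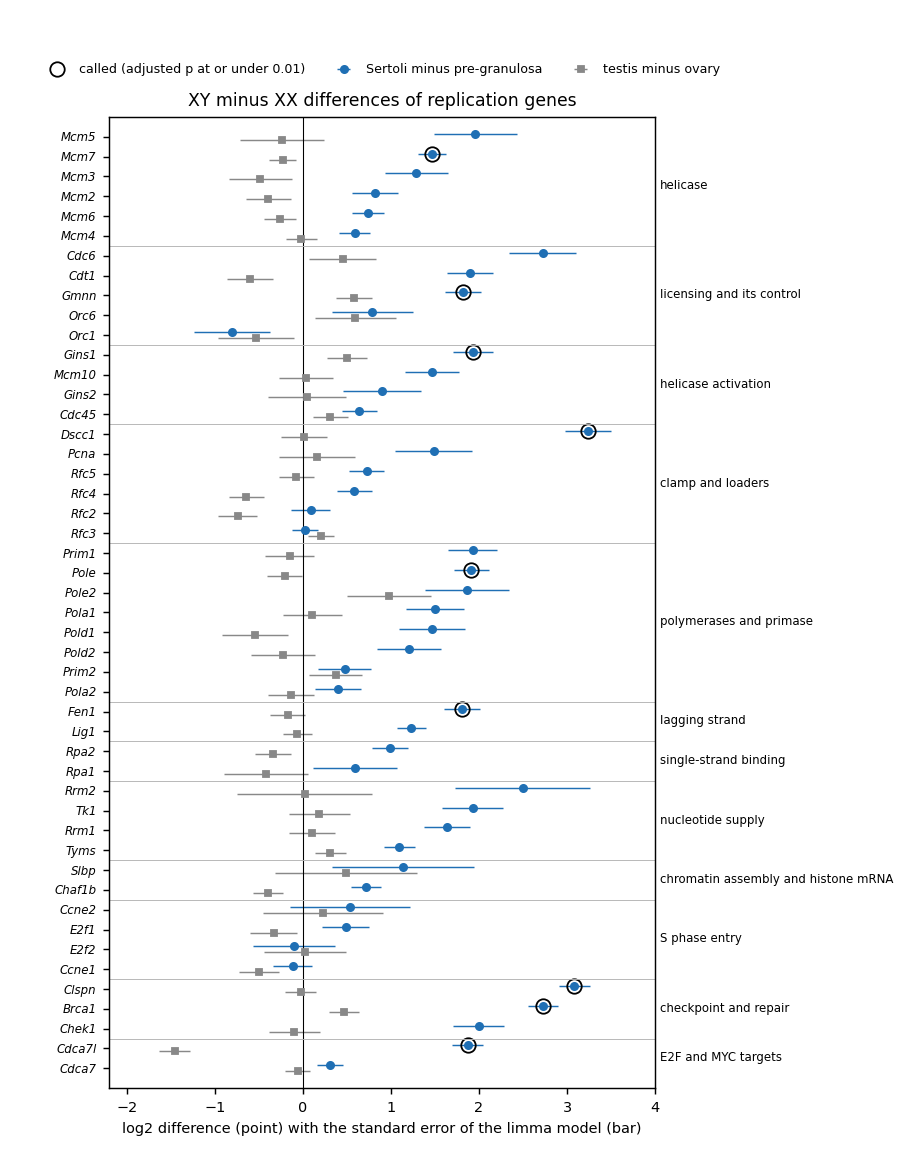
Difference in log2 value of each measured member (rows, by role), for Sertoli minus pre-granulosa (circles) and testis minus ovary (squares), with the standard error of the limma model as a bar. Ringed circles are the 9 called members. Circles lie right of 0 for 45 of 48 members, whereas squares lie on both sides, with the median at -0.06.

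Whole gonads gave another picture (testis minus ovary). The median member difference was -0.06, against -0.04 over all genes, and 21 members were above 0, or 43.8%, beside 44.2% of all genes. By the limma test 0 members were called in either direction, where 0.236% of all genes were called higher and 0.115% lower. At an unadjusted p under 0.05, 2 members were higher in testes and 3 lower, where the background was 5.38% and 6.11%. The groups did not overlap for 14 members higher and 20 lower in testes, beside 24.4% and 30.7% of all genes. The member shares, 29.2% and 41.7%, are given with no test.

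The lowest member was Cdca7l, with 8.12 and 8.42 in testes and 9.59 and 9.87 in ovaries, a difference of -1.46 ± 0.18 (adjusted p = 0.0294), 2.75-fold lower. It was also the only member lower by over 1 log2 unit without overlap, and 0 were higher by as much, where 2.66% and 3.11% of all genes were. Rfc2 read 9.90 and 10.11 in testes and 10.73 and 10.77 in ovaries (-0.74 ± 0.22), and Rfc4 read 9.71 and 9.91 in testes against 10.46 and 10.45 in ovaries (-0.64 ± 0.20), so that both loader subunits were lower in both testis arrays. The highest was Pole2, with 8.27 and 8.65 in testes and 7.49 and 7.46 in ovaries (0.98 ± 0.48, adjusted p = 0.642). Orc6 read 9.90 and 9.58 in testes against 9.20 and 9.08 in ovaries (0.60 ± 0.46), and Gmnn read 10.36 and 10.25 in testes against 9.78 and 9.67 in ovaries (0.58 ± 0.21). Gmnn and Brca1 were the 2 members higher at an unadjusted p under 0.05 (0.0288 and 0.0346), and Cdca7l, Rfc2 and Rfc4 the 3 lower ones.

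The helicase genes were close in the gonads, with differences from -0.48 in Mcm3 to -0.02 in Mcm4. Mcm3 read 11.03 and 11.28 in testes and 11.63 and 11.64 in ovaries, and Mcm2 read 10.39 and 10.59 in testes against 10.96 and 10.80 in ovaries. Mcm7 read 10.93 and 11.13 in testes against 11.17 and 11.36 in ovaries. Mcm6 read 10.68 and 10.89 in testes and 11.04 and 11.04 in ovaries. These 4 were lower in both testis arrays, by less than 0.5. Mcm5, with 10.15 and 10.74 in testes and 10.93 and 10.43 in ovaries, and Mcm4, with 12.92 and 13.06 in testes against 13.15 and 12.87 in ovaries, overlapped.

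The called members were closer together in the gonads, Cdca7l apart. Dscc1 read 9.07 and 9.10 in testes and 9.04 and 9.10 in ovaries, and Clspn 9.09 and 8.88 in testes against 9.04 and 8.98 in ovaries. Brca1 read 8.82 and 9.05 in testes and 8.45 and 8.49 in ovaries (0.47 ± 0.17), without overlap. Pole read 8.69 and 8.90 in testes against 8.97 and 9.03 in ovaries, and Fen1 12.53 and 12.70 in testes against 12.75 and 12.82 in ovaries, both a little lower in testes. Gins1 read 10.34 and 10.37 in testes and 9.97 and 9.75 in ovaries (0.50 ± 0.23).

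The members not yet named for the gonads spanned differences from -0.60 in Cdt1 to 0.49 in Slbp. Cdt1 read 9.64 and 10.14 in testes and 10.64 and 10.34 in ovaries, and Cdc6 7.83 and 8.24 in testes against 7.68 and 7.49 in ovaries (0.45). Rrm2 read 13.16 and 13.26 in testes and 13.23 and 13.15 in ovaries, and Pcna 11.38 and 11.48 in testes against 11.24 and 11.30 in ovaries. All of these but Rrm2 parted the gonads without overlap.

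Of the genes that start and carry the fork, Mcm10 read 7.86 and 7.95 in testes and 7.83 and 7.91 in ovaries, and Cdc45 read 8.02 and 7.70 in testes against 7.38 and 7.72 in ovaries. Gins2 read 8.75 and 8.97 in testes against 8.87 and 8.74 in ovaries. These 3 overlapped. Pola1 read 9.06 and 8.93 in testes against 8.91 and 8.86 in ovaries, a little higher in both testis arrays, and Prim1 read 10.92 and 10.90 in testes against 11.17 and 10.95 in ovaries, a little lower in both. Lig1 read 9.99 and 10.10 in testes against 10.10 and 10.13 in ovaries, with overlap.

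Of the genes of nucleotide supply, Rrm1 read 9.95 and 10.04 in testes and 9.85 and 9.94 in ovaries. Tk1 read 9.58 and 9.64 in testes against 9.40 and 9.45 in ovaries, and Tyms read 6.80 and 6.90 in testes against 6.44 and 6.64 in ovaries. In all 3 both testis arrays were the higher, by at most 0.31 between the means. Chek1 read 10.06 and 10.01 in testes against 10.15 and 10.11 in ovaries, and Slbp read 12.58 and 12.50 in testes against 11.97 and 12.14 in ovaries. E2f1 read 8.24 and 8.10 in testes against 8.45 and 8.55 in ovaries, and Ccne1 read 8.14 and 8.13 in testes against 8.90 and 8.37 in ovaries, both lower in both testis arrays. E2f2, with 6.22 and 6.37 in testes against 5.98 and 6.56 in ovaries, and Ccne2, with 8.40 and 9.05 in testes against 8.67 and 8.32 in ovaries, overlapped.

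Replicates of gonads were closer than those of sorted cells: their standard deviation over the members (root mean square) was 0.409 in Sertoli cells, 0.640 in pre-granulosa cells, 0.172 in testes and 0.164 in ovaries. No member had gonad replicates over 1 log2 unit apart, whereas 5 members did in Sertoli cells and 11 members did in pre-granulosa cells. The test pools the spread of all 4 groups, so 1 standard error stands for both comparisons of a gene.

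The same fit tested the difference of both comparisons, the sorted-cell difference less the gonad difference. Its median over the members was 1.27, against 0.08 over all genes, and 45 members were above 0, beside 58.3% of all genes. By the limma test 0 members were called, and 0 of all genes were (0% in each direction), while 30 members were higher at an unadjusted p under 0.05 and 0 lower, beside 7.68% and 5.33% of all genes. The lowest adjusted p was that of Cdca7l (3.33 ± 0.25, adjusted p = 0.0338). It was higher in both Sertoli arrays and lower in both testis arrays, as were other members such as Mcm7, Pole and Fen1. Clspn (3.10 ± 0.25, adjusted p = 0.0345), Brca1 (2.26 ± 0.24, adjusted p = 0.0450) and Dscc1 (3.23 ± 0.37, adjusted p = 0.0479) followed, and these 4 would be called at 0.05. A larger difference between the sorted cells than between the gonads was therefore not called for any single member at 0.01.

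The sorted cells were set beside the gonads of the same sex with no test, because the sets were normalized apart. The median of all genes was subtracted, -0.29 for Sertoli minus testis and -0.40 for pre-granulosa minus ovary. The member median was then -0.24 for Sertoli minus testis and -1.54, or 2.90-fold lower, for pre-granulosa minus ovary. In pre-granulosa cells 46 members were below the ovary without overlap and 2 above it (Orc1 and Rfc2), where the background was 32.0% and 32.5%. In Sertoli cells 26 were below the testis and 7 above it, where it was 37.4% and 36.0%.

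Past 1 log2 unit, 35 members were lower in pre-granulosa cells than in ovaries, against 13.6% of all genes, and 10 were lower in Sertoli cells than in testes, against 15.0%. Only Orc1 was higher past 1 in pre-granulosa cells (background 5.31%), and Orc1 and Rfc2 in Sertoli cells (background 6.26%). Of the 48 members, 45 had a lower value for pre-granulosa minus ovary than for Sertoli minus testis. Apart from the subtracted medians, this count restates the difference of both comparisons, which was above 0 for 58.3% of all genes. Clspn stood at -3.37 in pre-granulosa cells relative to ovaries and at -0.36 in Sertoli cells relative to testes. For pre-granulosa minus ovary Dscc1 stood at -3.42, Cdca7l at -3.62 and Mcm5 at -2.12. For Sertoli minus testis the same genes stood at -0.29, -0.40 and -0.03.

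The chosen probe sets of a few members were low in sorted cells of both sexes. Cdca7 read 4.88 and 4.97 in Sertoli cells and 4.68 and 4.56 in pre-granulosa cells, against 8.11 and 8.30 in testes and 8.30 and 8.23 in ovaries, which lay 3.43 and 3.48 above the background level on average. Ccne2 stood at -2.54 in pre-granulosa cells and -2.34 in Sertoli cells, and Slbp at -2.54 in pre-granulosa cells and -1.99 in Sertoli cells. A second bright probe set of Slbp went against this, at 0.56 in pre-granulosa cells, without overlap, and -0.13 in Sertoli cells, so the low Slbp reading rests on 1 probe set. The second probe set of Cdca7 stood at -0.57 in pre-granulosa cells, with overlap, and -1.21 in Sertoli cells. Mcm2 stood at -2.40 in pre-granulosa cells and -1.29 in Sertoli cells, the lowest Sertoli value of the helicase genes. Germ cell markers were also lower in the sorted cells than in the gonads, and their part in these values was not tested.

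Orc1 ran the other way, with 7.22 and 8.53 in Sertoli cells and 8.42 and 8.94 in pre-granulosa cells against 5.09 and 4.98 in testes and 5.73 and 5.41 in ovaries. Its second probe set did not show this: it read 5.58 and 6.39 in Sertoli cells and 6.79 and 7.17 in pre-granulosa cells against 5.94 and 6.67 in testes and 6.89 and 7.28 in ovaries. The 2 probe sets thus disagree, and the higher level in sorted cells rests on 1 of them. Over all members with several probe sets, 22 had every probe set above 0 in Sertoli minus pre-granulosa, 1 every probe set below it, and 14 had both signs. Of the 60 further probe sets 46 were above 0, and of the 52 whose highest group mean exceeded the background level, 41 were.

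**Figure D4:**
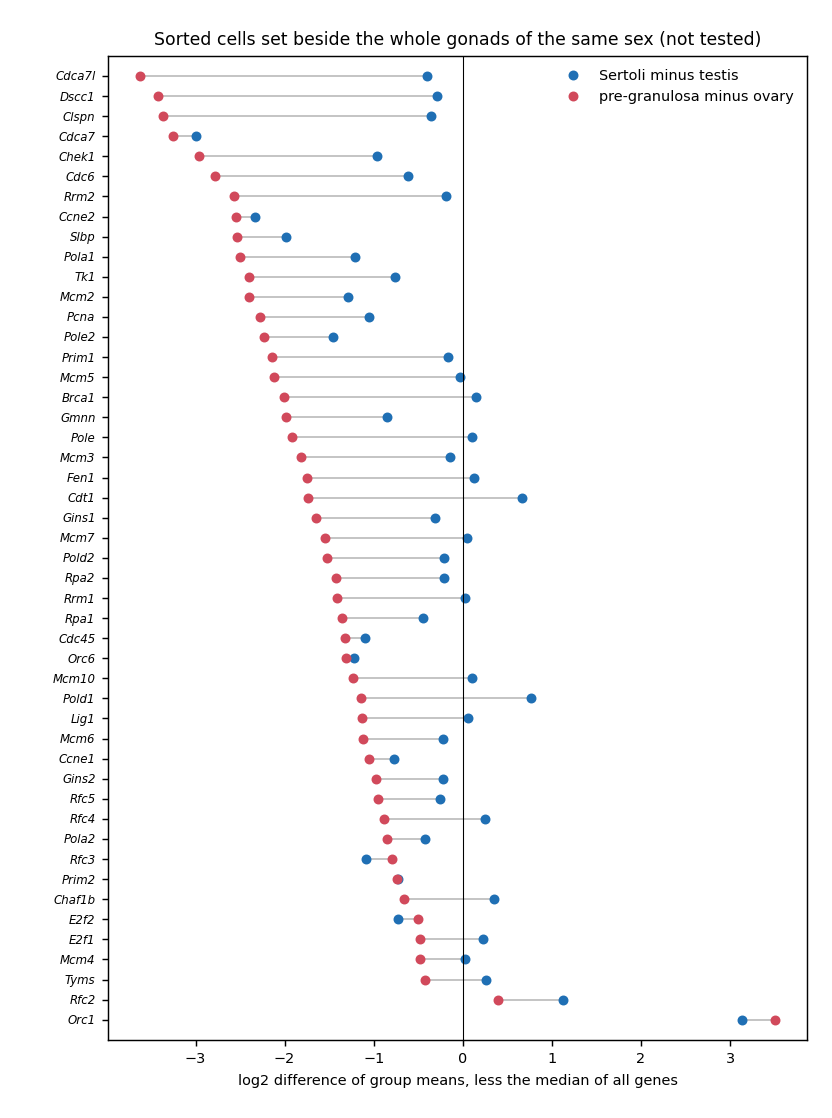
Difference of group means in log2 units, less the median of all genes, for pre-granulosa minus ovary (red) and Sertoli minus testis (blue), 1 row per member, ordered by the pre-granulosa value, with a line joining both. Red points lie left of blue ones for 45 of the 48 members and left of 0 for all but Orc1 and Rfc2. Apart from the subtracted medians, the order of red and blue restates the difference of both comparisons.

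Other cell cycle genes were read for comparison. A list of 50 further replication genes (48 measured) had a median Sertoli minus pre-granulosa difference of 1.08, with 2 called higher and 0 lower, and 27 higher and 0 lower at an unadjusted p under 0.05, beside the same shares of all genes as above. The called genes were Exo1, a nuclease of repair and replication (7.74 and 8.24 in Sertoli cells and 4.83 and 4.96 in pre-granulosa cells, 3.09 ± 0.23, adjusted p = 0.00216), and E2f7, a repressor of the E2F family that acts late in S phase (7.64 and 7.26 in Sertoli cells and 4.65 and 4.91 in pre-granulosa cells, 2.67 ± 0.20, adjusted p = 0.00217). The pre-granulosa readings of Exo1 and E2f7 lay near the background level of 4.78, and the lower one of E2f7 lay under it. The exact sizes of these differences are therefore uncertain. Atad2, a chromatin-bound ATPase, had a difference of 2.97 ± 0.93 and was not called. Orc2 (-0.64 ± 0.29) and Rrm2b (-0.35 ± 0.44) were lowest and were not called.

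Of 20 listed genes of the G2 and M phases, 19 were measured, 14 were called higher in Sertoli cells and 0 lower, beside 1.62% and 1.05% of all genes. Their median difference was 2.70. Bub1, a checkpoint kinase of mitosis, read 7.64 and 9.11 in Sertoli cells and 3.99 and 4.11 in pre-granulosa cells (4.33 ± 0.44, adjusted p = 0.00527). Both of its pre-granulosa readings lay under the background level, so the exact size of this difference was not measured. Nusap1, a spindle protein, rose by 4.64 ± 0.54 (adjusted p = 0.00783) and Bub1b, another checkpoint kinase, by 1.31 ± 0.14 (adjusted p = 0.00627). Tpx2 had 4.44 ± 1.33 and Kif20a 1.20 ± 0.33, neither called. Germ cell, macrophage and other marker levels given above apply to these genes as well.

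The list named cell cycle exit held 11 genes: inhibitors, pocket proteins and D cyclins. D cyclins drive the cycle, so the values of this list do not stand for exit alone. Limma called 0 of the 11. At an unadjusted p under 0.05, 2 were higher and 4 lower, beside 12.6% and 9.80% of all genes, and the median was -0.02. Cdkn1b, which encodes the inhibitor p27, read 11.29 and 10.72 in Sertoli cells and 12.13 and 13.02 in pre-granulosa cells (-1.57 ± 0.33, adjusted p = 0.0510). Cdkn1c, which encodes p57, read 7.45 and 8.42 in Sertoli cells against 8.94 and 9.49 in pre-granulosa cells (-1.28 ± 0.36, adjusted p = 0.112). Both had the pre-granulosa arrays above the Sertoli arrays. The highest were Rb1 (1.59 ± 0.84), Rbl1 (1.31 ± 0.32) and Cdkn2c (0.67 ± 0.16). In testis minus ovary the further replication genes had a median of 0.13, the G2 and M phase genes 0.37 and the exit list 0.03. Limma called 0 genes in each list. At an unadjusted p under 0.05 that comparison had 3, 2 and 1 of them higher and 0, 0 and 2 lower, beside 5.38% and 6.11% of all genes.

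**Figure D5:**
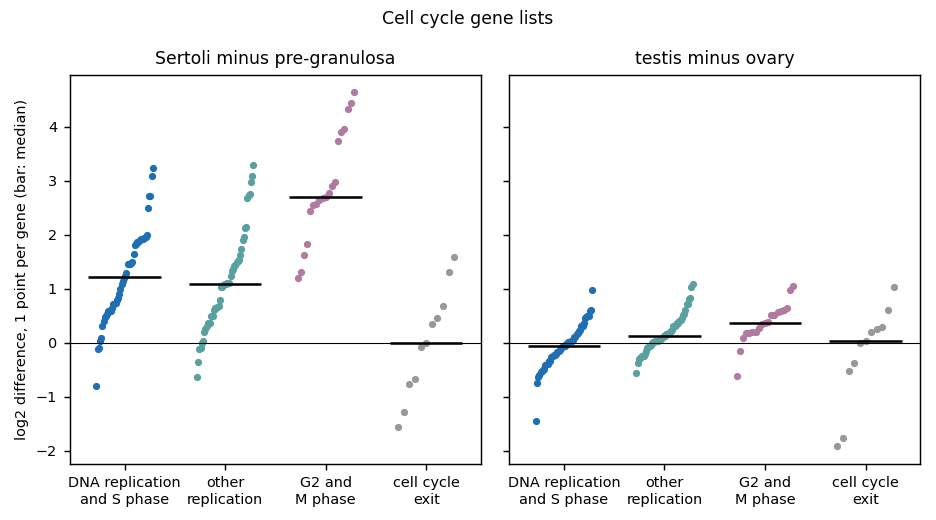
Log2 differences of the replication genes and the 3 comparison lists, 1 point per gene ordered by value, with a bar at the median, for Sertoli minus pre-granulosa (left) and testis minus ovary (right). On the left the bars stand at 1.21, 1.08, 2.70 and -0.02, and on the right all 4 lie between -0.06 and 0.37.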

How the data were processed

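The authors deposited RMA values per probe set as log2 signals for 8 Affymetrix mouse expression arrays, per the submitters' processing notes, which give no version of RMA. RMA brings the arrays of 1 run to a common distribution, and the sorted-cell and gonad arrays differ as sets, so levels were tested only within a set. Of 45101 probe sets, 64 controls were left out. The platform annotation gave 1 symbol for 34945 of the other 45037, several for 932 and none for 9160, and 34741 matched RefSeq GRCm38.p6. A gene was read from its probe set with the highest mean over all 8 arrays.

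The samples were fitted with limma 3.58.1 in R 4.3.3, with a mean per group over all 8 arrays (4 residual degrees of freedom), moderated by eBayes, two-sided, with Benjamini-Hochberg adjustment over all 45037 probe sets. The threshold of 0.01 follows the 1% false discovery rate of the series text, whose own test was another. The fit was tested on simulated data in which a gene had the same spread in every group. The groups here differ in spread, so that run cannot show how the calls hold with unequal spreads. Promoter letters were searched in Python 3.11.15. No depth exists for arrays, and the 2 arrays per group limit the precision. The replicate numbers are not shown to pair the samples. The members, the comparison lists and the rule for which genes get values for each array were chosen with earlier results of these data known. That rule takes the helicase genes, the called members, those at the extremes of a comparison, named genes of each role, and of each comparison list the 3 highest and the 2 lowest; 1 gene it names is not reported here, and E2f7, outside the rule, was named as 1 of 2 called genes of its list after its values were seen. Alternatives changed the normalization, the probe sets, the samples, the moderation, the block and the threshold.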

Additional observations from a re-analysis of the deposited data

How the results depend on the processing

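The direction of the median Sertoli minus pre-granulosa difference held in all alternatives run, and so did the sign of the 9 called members, but the number called did not. Of 48 members, 0 were called with only the groups compared (29 at an unadjusted p under 0.05) or with no moderation (34), 3 with a weight per group and 18 at an adjusted p of 0.05, against 9. Leaving out 1 array gave 0 to 14 called. Over all genes 294 higher and 191 lower calls became 109 and 65 with a weight per group, 786 and 557 at 0.05, 0 and 0 with only the groups compared and 4 and 4 with no moderation, and ranged from 34 and 30 to 599 and 317 without 1 array. Across 18 alternatives Clspn was called in 15, Brca1 in 14 and Dscc1 in 11, and the other 6 in fewer. Of the 39 members not called, 15 were called and 8 changed sign under at least 1 alternative.

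With the replicate number as a block, 3 members were called in Sertoli minus pre-granulosa, 0 in testis minus ovary and 0 in the difference of both, and all genes gave 129 higher and 80 lower in the first. Deviations of samples with the same number correlated at 0.0094 in the sorted cells and 0.015 in the gonads, so the number is not shown to pair samples.

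In testis minus ovary 1 member (Cdca7l, lower) was called with the mean over probe sets, with a weight per group and at 0.05, and of the 48 members 16 changed sign under at least 1 alternative. Its median was -0.016 with the mean over probe sets and ranged from -0.096 to 0.028 without 1 array, turning positive without testis replicate 1, and the cause was not tested. For the difference of both, 4 members were called at 0.05.

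The Sertoli minus pre-granulosa median was 0.91 with the mean over probe sets and 0.72 over every probe set, and ranged from 1.09 to 1.34 without 1 array. The median of the difference of both was 1.34 with quantile normalization, 0.93 with the mean and 0.81 over every probe set, and 1.13 to 1.39 without 1 array. Sertoli minus testis was -0.072 with quantile normalization, -0.53 with no centring and -0.086 over bright probe sets, and -0.32 to -0.22 without 1 array. Pre-granulosa minus ovary was -1.38, -1.93 and -1.39 in the same settings, -1.35 with the mean and -1.29 over every probe set, and -1.66 to -1.44 without 1 array. A fit without 1 array assumes that the lone sample varies like the other groups. Signals near the background level, as for Cdca7 in the sorted cells, limit what a difference can show.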

Other observations

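The comparison lists were also read in the sorted cells set beside the gonads, less the median of all genes and with no test. The G2 and M phase genes had a median of -2.91 for pre-granulosa minus ovary and -0.62 for Sertoli minus testis. The further replication genes had -1.19 and -0.52, and the cell cycle exit list, which includes D cyclins, -0.36 and -0.38. None of the 19 G2 and M phase genes was higher in pre-granulosa cells than in ovaries, and 4 of them, Mki67, Cenpf, Aurka and Plk1, were higher in Sertoli cells than in testes. These 4 were named after their values were seen. Since the median was subtracted, about as many of all genes were higher as lower by sign alone in each comparison. Without overlap, 32.5% of all genes were higher in pre-granulosa cells than in ovaries, and 36.0% in Sertoli cells than in testes.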
